A study of Mus musculus with 9 samples.

Results

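The Id proteins, the E proteins and musculin were followed in satellite cells, the stem cells of mouse skeletal muscle, at 3 stages, freshly isolated from muscle, proliferating in culture and differentiated into myotubes. The 8 genes were taken by symbol from the 45706 genes of the deposited table. They are the 4 Id genes Id1, Id2, Id3 and Id4, the 3 E-protein genes Tcf3, Tcf4 and Tcf12, and Msc, which encodes musculin (MyoR). All 8 passed the filter on low values, which kept 17291 genes with a value of 10 or more in at least 3 libraries. RNA was sequenced from 3 freshly isolated, 3 proliferating and 3 myotube samples of wild-type C57Bl6 mice aged 12 to 20 weeks, each from different animals. Freshly isolated cells had not been cultured. Proliferating cells had grown for at least 3 days in a medium containing human FGF-2, a growth factor for muscle stem cells (2.5 ng/ml), and fetal calf serum (20%). Myotubes had then spent 6 days in medium with 2% horse serum, used to make the cells leave the cell cycle and fuse. Every cultured sample therefore differs from the freshly isolated cells in culture time and medium as well as stage. Whether all cells of the myotube samples had left the cell cycle was not measured.

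MyoD and its relatives Myf5, myogenin and Myf6 are basic helix-loop-helix (bHLH) proteins, which bind the E-box sequence in DNA as heterodimers with an E protein. The E proteins are E2A (Tcf3, which encodes the splice forms E12 and E47), E2-2 (Tcf4) and HEB (Tcf12). Id proteins have the helix-loop-helix but lack the basic region, so they take up E proteins in dimers that cannot bind DNA, and they are known as inhibitors of differentiation and as target genes of bone morphogenetic protein (BMP) signalling. Musculin is a bHLH protein that dimerises with E proteins and represses transcription from E-boxes. The Tcf4 described here is not Tcf7l2, the HMG-box factor that is also called TCF4 and serves as a marker of muscle connective tissue.

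Upstream sequences were read from RefSeq (GRCm38.p6). Windows of 5 of the 8 genes were used, and any window of Tcf4 was left out of the search. Those of Id2, Id3 and Id4 are shown because these Id genes were all lower in myotubes than in proliferating cells. Each is the 250 bases before an annotated start site, from 5′ to 3′ on the gene's strand. The windows are chr12:25096093-25096342 on the minus strand for Id2, chr4:136143572-136143821 on the plus strand for Id3 and chr13:48260866-48261115 on the plus strand for Id4. The Id2 and Id3 windows lie inside the GENCODE span of the gene, whose annotated boundary is further upstream. Capitals mark the GC-rich motif GGCGCC, known to bind the BMP-activated Smads, and the E-box CAGCTG.
Id2: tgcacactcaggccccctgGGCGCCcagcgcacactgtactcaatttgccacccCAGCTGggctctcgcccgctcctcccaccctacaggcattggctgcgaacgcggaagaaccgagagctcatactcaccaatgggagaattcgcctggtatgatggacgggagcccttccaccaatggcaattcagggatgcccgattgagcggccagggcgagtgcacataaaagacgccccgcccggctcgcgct
Id3: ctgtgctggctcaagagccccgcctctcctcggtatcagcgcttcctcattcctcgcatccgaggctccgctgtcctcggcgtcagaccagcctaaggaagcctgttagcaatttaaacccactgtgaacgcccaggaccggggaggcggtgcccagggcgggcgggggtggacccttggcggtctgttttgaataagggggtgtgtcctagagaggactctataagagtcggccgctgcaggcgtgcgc
Id4: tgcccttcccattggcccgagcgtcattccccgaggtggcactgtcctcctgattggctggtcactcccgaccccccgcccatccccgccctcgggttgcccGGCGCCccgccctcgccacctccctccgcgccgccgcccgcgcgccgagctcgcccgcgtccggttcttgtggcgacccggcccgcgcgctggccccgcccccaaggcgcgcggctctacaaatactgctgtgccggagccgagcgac

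The search covered both strands. It took GGCGCC and the E-box CAGCTG, which read the same on either strand, and a second E-box, CACCTG (read on the other strand as CAGGTG). The GC-rich motif occurred at -231 in the Id2 window and at -148 in the Id4 window, counted from the start site, and the first E-box at -196 in the Id2 window. No match was found in the Id3 window or in the Tcf3 window, and 1 of 3 Tcf12 windows held the first E-box, at -240. Among all 32851 windows of this length in RefSeq's table, 9.59% held the GC-rich motif, 13.0% the first E-box and 17.2% the second E-box in either reading. The matches describe the letters of these windows only.

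The genes are given in GRCm38 coordinates with GENCODE vM21 annotation. The Id genes are short. Id1 lies on chromosome 2 from 152736251 to 152737410, Id2 on chromosome 12 from 25093799 to 25097140, Id3 on chromosome 4 from 136143497 to 136145755 and Id4 on chromosome 13 from 48261228 to 48266026. The E-protein genes are long, with many transcripts. Tcf3 lies on chromosome 10 from 80409514 to 80433647 with 14 annotated transcripts, Tcf12 on chromosome 9 from 71842688 to 72111871 with 21 and Tcf4 on chromosome 18 from 69343356 to 69689079 with 62. Msc lies on chromosome 1 from 14753346 to 14755992. The deposited values are per gene and summed over exons, so splice forms such as E12 and E47 cannot be told apart.

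The deposited values, read counts after the authors' scaling and rounding, are called normalized read counts. Their sum per library was 20.1 to 26.2 M in freshly isolated cells, 17.8 to 18.2 M in proliferating cells and 19.5 to 20.8 M in myotubes. Freshly isolated replicate 1 stood apart, with 22.2% of its total in the non-coding RNA gene Gm26917 against 10.6% and 11.2% in replicates 2 and 3, and with 1 read worth an estimated 2.18 normalized units, the most of any library. Proliferating replicate 1 had the lowest Myog value of its stage, 2179 against 9530 and 8749. The satellite cell gene Pax7 was found in every library, at means of 13429 in freshly isolated cells, 2851 in proliferating cells and 1364 in myotubes. Other satellite cell genes did not all share that pattern. Vcam1 averaged 14613, 1291 and 788 in the same order, but Itga7 averaged 6348, 9102 and 6713 and Cdh15 4129, 2923 and 4666. The proliferation gene Mki67 averaged 233, 23936 and 10000 in the same order of stages, so the myotube samples still held Mki67 RNA. Cdk1, another proliferation gene, averaged 4.67, 3092 and 1101. Neither fall in myotubes against proliferating cells passed the threshold in the limma model used below (adjusted p = 0.067 and 0.113). The libraries of those stages did not overlap for either gene. Of the markers of other cell types, the summed fibro-adipogenic list stood at 2984 to 4491 in freshly isolated libraries, 25 to 37 in proliferating and 26 to 36 in myotube libraries, while its defining marker Pdgfra averaged 6.00, 18.0 and 14.3. Endothelial markers summed to 105 to 227, 54 to 98 and 20 to 28, leukocyte markers to 701 to 805, 58 to 80 and 244 to 261 (Ptprc means of 4.67, 0.333 and 1.00), and Schwann cell markers to 92 to 203, 38 to 48 and 34 to 45. In freshly isolated cells the fibro-adipogenic sum was mostly Dpt (mean 3084) and Dcn (750), and the leukocyte sum mostly Cd68 (600) and Cd79a (159). In myotubes the leukocyte sum was mostly Itgam (222). Pericyte or smooth muscle markers summed to 2939 to 4159, 8653 to 20083 and 62655 to 63599, mostly Acta2, with means of 64.3, 6.33 and 56.7 for Rgs5. That sum thus mainly follows Acta2 (means of 2247, 13021 and 60967). The other markers of that list differed in direction. Cspg4 averaged 398, 1810 and 162 and Myh11 12.7, 8.67 and 9.67, while Abcc9 averaged 562, 39.7 and 1615 and Pdgfrb 180, 137 and 301. Genes known to be induced when tissue is dissociated summed to 253013 to 299915, 7603 to 8345 and 5331 to 5465. The part of these other cells and of dissociation in the changes below was not tested.

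Among the Id genes, Id1 and Id2 were highest in proliferating cells, Id3 was high in both freshly isolated and proliferating cells, and Id4 was highest in freshly isolated cells. All 4 were lower in myotubes than in proliferating cells. These are levels of RNA in bulk samples, in which fewer cells of a type and less RNA per cell cannot be told apart.

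Id1, an inhibitor of bHLH dimers that is induced by BMP, had 1318, 1439 and 1086 normalized read counts in freshly isolated, 3062, 2641 and 2826 in proliferating and 1243, 1303 and 1103 in myotube libraries. Every proliferating library lay above the other 6, and the freshly isolated and myotube libraries overlapped. In 1 limma model over the 9 libraries, the log2 change of Id1 was 1.16 ± 0.12 (SE) in proliferating against freshly isolated cells (2.23-fold, adjusted p = 1.01e-05). It was -1.23 ± 0.12 in myotubes against proliferating cells (adjusted p = 1.68e-05). Myotubes and freshly isolated cells differed by -0.07 (95% interval -0.34 to 0.20, adjusted p = 0.617), a difference whose sign turned with TMM scaling (0.0074). Leaving out freshly isolated replicate 2 (0.020) or myotube replicate 3 (0.00034) turned it too.

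Id2, which is also known as a partner of the retinoblastoma protein, had 571, 1111 and 908 in freshly isolated, 2162, 1833 and 1749 in proliferating and 603, 625 and 599 in myotube libraries. The 3 proliferating libraries were again the highest, and freshly isolated replicate 1, at 571, lay below every myotube library while the other 2 lay above. The log2 change was 1.2 ± 0.20 in proliferating against freshly isolated cells (2.29-fold, adjusted p = 0.000389) and -1.65 ± 0.20 in myotubes against proliferating cells (3.13-fold, adjusted p = 7.97e-05). Between myotubes and freshly isolated cells it was -0.45 (95% interval -0.91 to 0.01, adjusted p = 0.0668). Without freshly isolated replicate 1 it was -0.72 (adjusted p = 0.00018), and with all libraries and quantile normalization it was -0.76 (adjusted p = 0.00538), so the call depends on that library and on the scaling.

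Id3 had the highest value of the 4 Id genes in every library, before any division by length. It had 4996, 3924 and 3577 in freshly isolated, 3776, 3519 and 3655 in proliferating and 1553, 1669 and 1291 in myotube libraries. The freshly isolated and proliferating libraries overlapped, and the myotube libraries lay below all of them. The log2 change of Id3 was -0.18 in proliferating against freshly isolated cells (95% interval -0.48 to 0.12, adjusted p = 0.257), and quantile normalization turned its sign (0.040). Id3 fell by 1.29 ± 0.13 on the log2 scale in myotubes against proliferating cells (2.44-fold, adjusted p = 2.56e-05) and by 1.46 ± 0.13 against freshly isolated cells (2.76-fold, adjusted p = 3.39e-06).

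Id4, the least abundant of the family, had 312, 244 and 211 in freshly isolated, 74, 57 and 87 in proliferating and 24, 28 and 11 in myotube libraries. The 3 stages did not overlap. Id4 fell by 1.80 ± 0.35 on the log2 scale in proliferating against freshly isolated cells (3.49-fold, adjusted p = 0.000977) and by 1.82 ± 0.35 in myotubes against proliferating cells (3.53-fold, adjusted p = 0.00152). Myotubes had 12.3-fold less Id4 than freshly isolated cells (log2 change -3.62 ± 0.35, adjusted p = 5.34e-06). Exons of Id4 share 82 bases with the antisense gene A330033J07Rik, at 22, 32 and 62 in freshly isolated and 0, 0 and 4 in proliferating libraries and 0 in all 3 myotube libraries. They also share 171 bases with the antisense gene Gm49291, not analysed here. The sources used here do not say whether reads were counted by strand, and reads from these bases cannot be assigned to a strand.

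**Figure D1:**
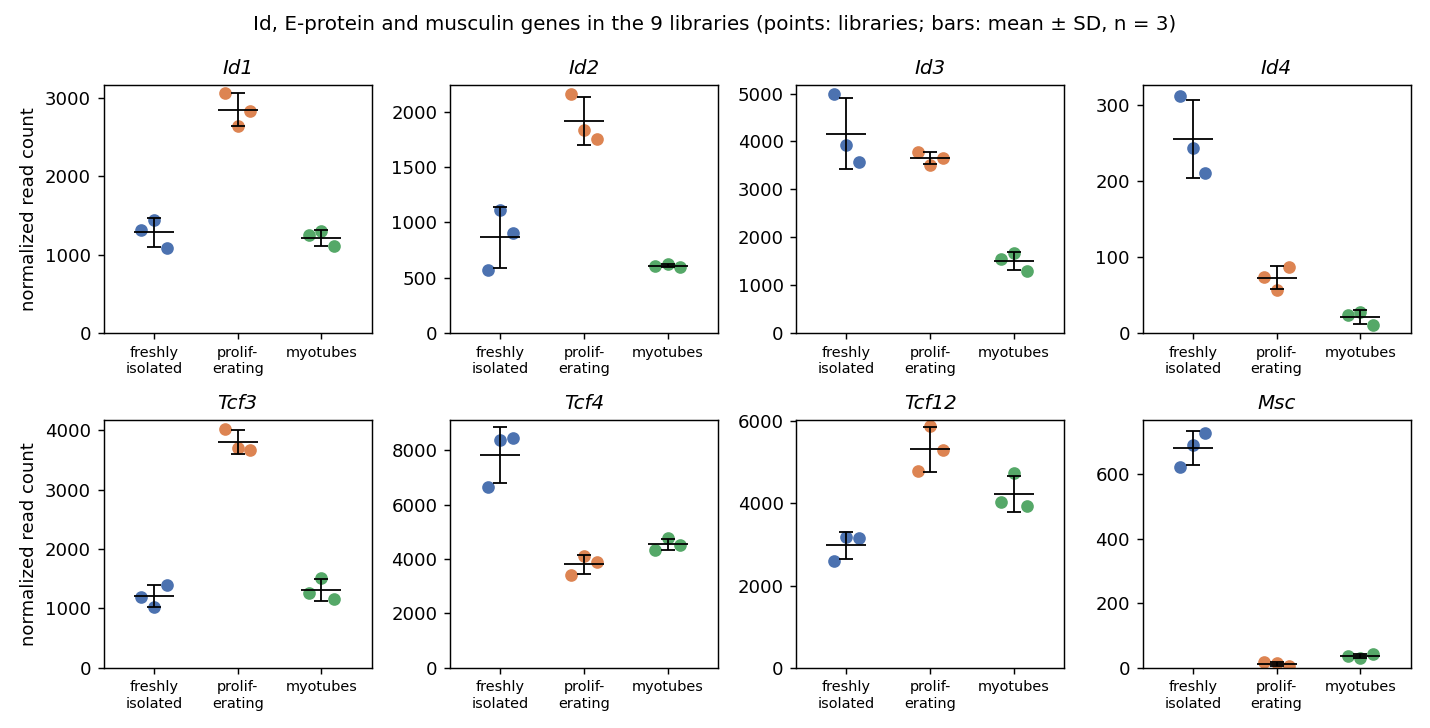
Normalized read counts of the 8 genes (vertical axes, linear and starting at 0) in freshly isolated, proliferating and myotube libraries. Points are libraries and black bars the mean ± SD (n = 3); Id1, Id2 and Tcf3 are highest in the 3 proliferating libraries, Id4, Tcf4 and Msc in the 3 freshly isolated libraries.

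The 3 E-protein genes moved differently from each other. In proliferating cells, Tcf3 and Tcf12 stood above their level in freshly isolated cells and Tcf4 below it, and Tcf3 fell again in myotubes.

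Tcf3, which encodes E12 and E47, long known as partners of MyoD, had 1192, 1028 and 1393 normalized read counts in freshly isolated, 4030, 3706 and 3668 in proliferating and 1254, 1509 and 1161 in myotube libraries. The proliferating libraries stood apart from the other 6, which overlapped. The log2 change was 1.67 ± 0.13 in proliferating against freshly isolated cells (3.18-fold, adjusted p = 1.29e-06) and -1.55 ± 0.13 in myotubes against proliferating cells (2.92-fold, adjusted p = 7.05e-06). Myotubes and freshly isolated cells differed by 0.12 (95% interval -0.17 to 0.41, adjusted p = 0.414), and quantile normalization turned that sign (-0.058).

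Tcf12, which encodes HEB, had 2610, 3185 and 3160 in freshly isolated, 4792, 5877 and 5294 in proliferating and 4044, 4736 and 3930 in myotube libraries. The stages did not overlap, and the myotube values lay between the other 2 stages, closest to the proliferating ones, where the highest myotube library (4736) was just under the lowest proliferating one (4792). Tcf12 was 1.78-fold higher in proliferating than in freshly isolated cells (log2 change 0.83 ± 0.12, adjusted p = 9.48e-05) and 1.42-fold higher in myotubes than in freshly isolated cells (0.51 ± 0.12, adjusted p = 0.00251). Its fall in myotubes against proliferating cells was small (-0.33 ± 0.12, adjusted p = 0.0367). That fall was not called on leaving out proliferating replicate 2 (adjusted p = 0.133) or 3 (0.0846) or myotube replicate 1 (0.113) or 3 (0.125), nor with no filter on low values (0.0619).

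Tcf4, which encodes E2-2, had 6630, 8364 and 8460 in freshly isolated, 3409, 4093 and 3897 in proliferating and 4347, 4761 and 4514 in myotube libraries. All freshly isolated libraries lay above all cultured ones. Tcf4 fell by 1.04 ± 0.11 on the log2 scale in proliferating against freshly isolated cells (2.05-fold, adjusted p = 1.52e-05) and by 0.78 ± 0.11 in myotubes against freshly isolated cells (1.71-fold, adjusted p = 0.00011). In myotubes against proliferating cells the change was 0.26 (95% interval 0.01 to 0.51, adjusted p = 0.0771). The libraries of those 2 stages did not overlap, and the test passed the threshold when only they were fitted (adjusted p = 0.0289).

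Msc showed the largest change of the 8 genes in both comparisons against freshly isolated cells. It had 623, 691 and 727 normalized read counts in freshly isolated, 18, 14 and 4 in proliferating and 35, 30 and 43 in myotube libraries. Musculin RNA was thus near the lower end of the measured range in both cultured stages, with every myotube library above every proliferating one. The log2 change was -5.92 ± 0.44 in proliferating against freshly isolated cells (60.4-fold, adjusted p = 9.02e-07), and 2.82% of all genes tested changed as much or more. It was -4.21 ± 0.44 in myotubes against freshly isolated cells (18.6-fold, adjusted p = 9.05e-06) and 1.70 ± 0.44 in myotubes against proliferating cells (adjusted p = 0.0081). Proliferating replicate 3, at 4, weighs on both values that use that stage, which were -5.33 and 1.12 without it and remained past the threshold. Of the exonic length of Msc, 539 bases (21.2%) are shared with the antisense gene Gm9947, which had 70, 146 and 118 in freshly isolated, 4, 1 and 1 in proliferating and 5, 5 and 6 in myotube libraries. Reads from the shared bases cannot be assigned to a strand here.

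**Figure D2:**
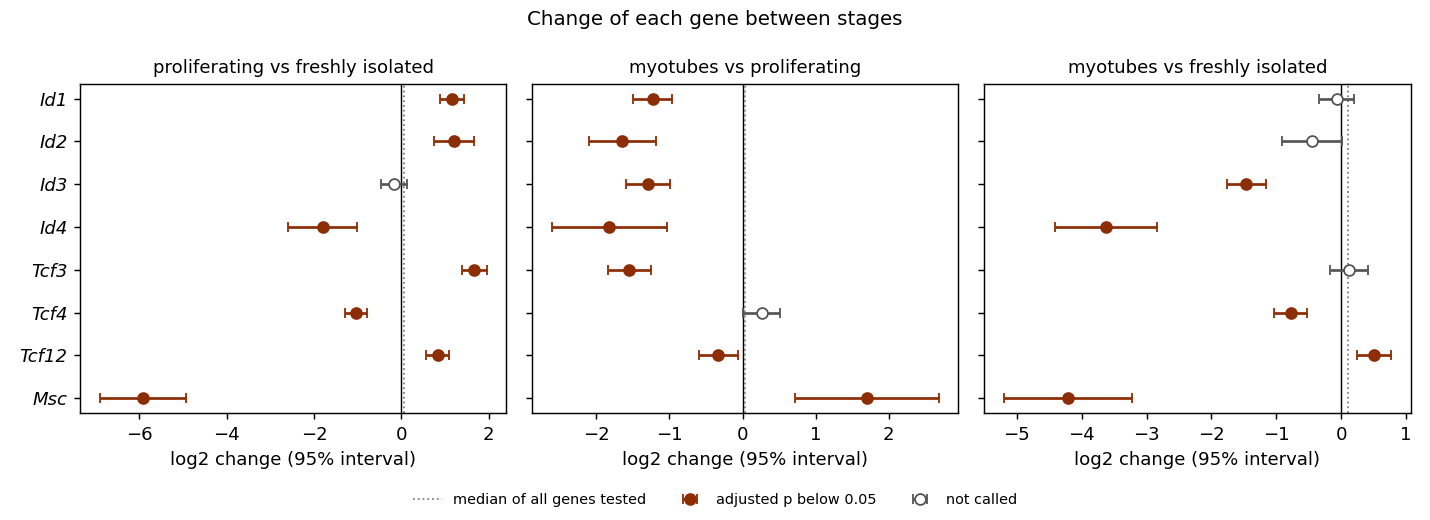
Log2 change of each gene (horizontal axes) with its 95% interval, from the limma model over 9 libraries, in proliferating against freshly isolated cells, myotubes against proliferating cells and myotubes against freshly isolated cells. Filled points had an adjusted p below 0.05, and the dotted line is the median of all 17291 genes tested (0.07, 0.04 and 0.10); Msc reaches -5.92 in the first comparison and all 4 Id genes lie below 0 in the second.

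Of the 8 genes, 7 were called in proliferating against freshly isolated cells, 4 higher and 3 lower, where 73.3% of all genes tested were called (37.6% higher and 35.7% lower). In myotubes against proliferating cells 7 were called, 1 higher and 6 lower, where 54.1% of all genes were called (28.6% higher and 25.5% lower). In myotubes against freshly isolated cells 5 were called, 1 higher and 4 lower, where 77.6% of all genes were called (40.2% higher and 37.3% lower). The comparisons share libraries, so their counts are not independent. In both comparisons against freshly isolated cells the number called was within 2 genes of what the share of all genes amounts to for 8 genes. In myotubes against proliferating cells the median log2 change of the 8 genes was -1.26, and that of all genes 0.04. Libraries of the 2 stages did not overlap for 7, 8 and 5 of the 8 genes in the 3 comparisons, and for 74.0%, 70.9% and 78.7% of all genes.

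The sizes were set beside those of all genes. The rises of Id1 and Id2 in proliferating against freshly isolated cells were matched or passed in absolute size by 53.9% and 52.8% of all genes tested, and that of Tcf3 by 39.3%. The falls of the Id genes in myotubes against proliferating cells stood further out, with 14.3% of all genes changing as much as Id4, 17.6% as much as Id2, 27.2% as much as Id3 and 29.3% as much as Id1. For Tcf3 in that comparison the share was 19.9%.

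To set the genes beside each other, each value was divided by the gene's merged exonic length in GENCODE vM21. In freshly isolated cells, Id3 had the highest mean level per kilobase, at 2326 ± 413 (SD, n = 3), and Id1 followed at 1104 ± 155. Id2 (354 ± 112), Tcf3 (298 ± 45.3), Tcf4 (286 ± 37.6) and Msc (267 ± 20.7) came next and overlapped from each gene to the next, before Tcf12 at 192 ± 20.9 and Id4 at 66.4 ± 13.4. In proliferating cells no neighbours in the order overlapped. There Id1 led at 2451 ± 182 per kilobase, before Id3 (2038 ± 71.8), Tcf3 (941 ± 49.3), Id2 (785 ± 89.5), Tcf12 (343 ± 35.0), Tcf4 (139 ± 12.9), Id4 (18.9 ± 3.91) and Msc (4.71 ± 2.83).

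In myotubes Id1 (1049 ± 88.5 per kilobase) and Id3 (840 ± 108) again led. Tcf3 (324 ± 44.6), Tcf12 (273 ± 28.1) and Id2 (250 ± 5.74) overlapped from each to the next, and Tcf4 (166 ± 7.61), Msc (14.1 ± 2.58) and Id4 (5.46 ± 2.31) followed. The order depends on the length used, because the merged exons of Tcf4 (27382 bases) and Tcf12 (15529) are far longer than their longest transcripts (8577 and 6299). With the longest transcript as length, Id3 stood above Id1 in all 3 stages, and Tcf4 came after them in freshly isolated cells, at 912 per kilobase. Which transcripts were present was not measured.

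The make-up of each family shifted between stages. Of the summed level per kilobase of the 3 E proteins, Tcf3 made up 38.4% ± 4.56 in freshly isolated cells, 66.2% ± 3.22 in proliferating cells and 42.4% ± 1.55 in myotubes (SD, n = 3 each). Tcf4 made up 36.8% ± 2.87, 9.76% ± 0.92 and 21.8% ± 1.49 in the same order, and Tcf12 made up 24.8% ± 1.75, 24.1% ± 2.34 and 35.8% ± 0.09. Against freshly isolated cells, proliferating cells had a Tcf3 share 27.7 percentage points higher and a Tcf4 share 27.0 points lower, with no overlap between libraries and p = 0.1 in a two-sided exact permutation test, the smallest that 3 against 3 libraries can give. With longest transcripts as lengths the shares in the 3 stages were 22.8%, 50.1% and 26.9% for Tcf3, 50.7%, 17.2% and 32.3% for Tcf4, and 26.4%, 32.7% and 40.9% for Tcf12. The leading E protein in freshly isolated cells and in myotubes therefore depends on the length used, while Tcf3 led in proliferating cells with both.

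Among the Id genes, Id3 made up 60.2% ± 5.20 of the summed level per kilobase in freshly isolated cells, 38.5% ± 1.09 in proliferating cells and 39.1% ± 1.38 in myotubes. Id1 made up 28.7% ± 2.41, 46.3% ± 0.71 and 48.9% ± 0.54. The rest was Id2, with 9.38% ± 3.35, 14.8% ± 0.98 and 11.7% ± 0.95, and Id4, with 1.72% ± 0.17, 0.356% ± 0.07 and 0.249% ± 0.09. The mix of Id transcripts in myotubes was closer to that of proliferating cells than to that of freshly isolated cells for Id1 and Id3, although the summed level had fallen.

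**Figure D3:**
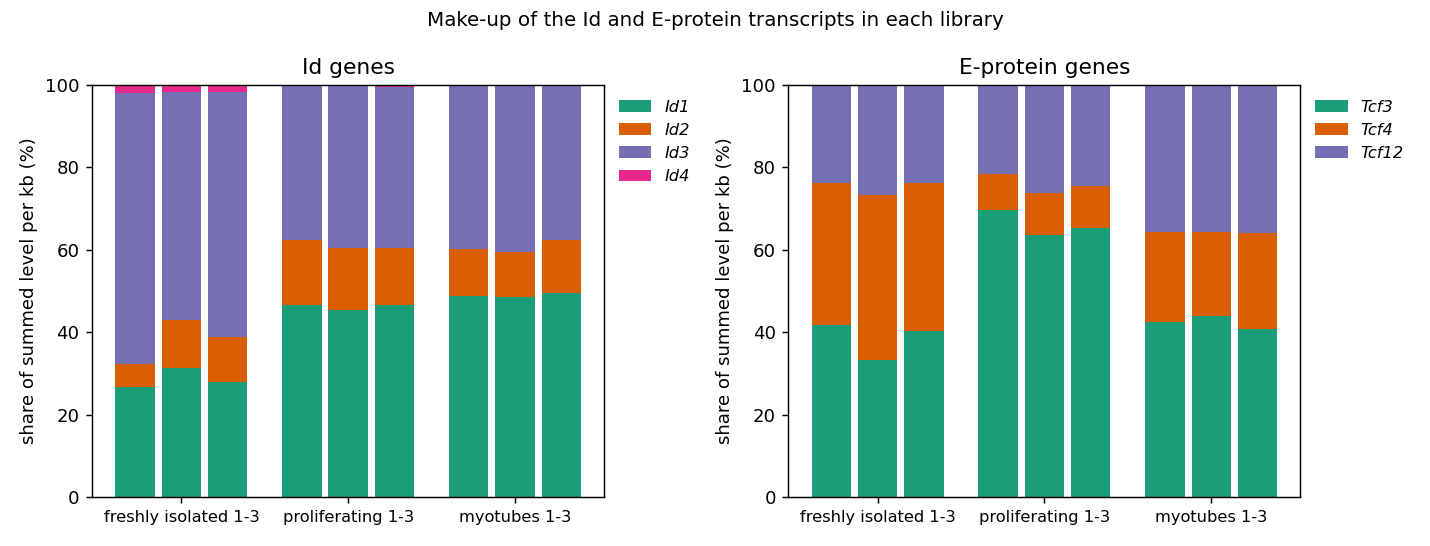
Share of each gene (percent, vertical axes) in the summed level per kilobase of merged exons of the 4 Id genes (left) and the 3 E-protein genes (right), 1 stacked bar per library in replicate order within each stage. Tcf3 fills 66.2% of the E-protein bar on average in proliferating cells, and Id3 60.2% of the Id bar in freshly isolated cells.

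The summed Id level per kilobase was 3851 ± 449 in freshly isolated cells, 5293 ± 330 in proliferating cells and 2144 ± 204 in myotubes. That of the E proteins was 776 ± 76.6, 1423 ± 28.0 and 762 ± 78.9. The Id share of the 2 sums together was 83.1% ± 3.10, 78.8% ± 1.11 and 73.8% ± 1.10. Its size depends on the length used, with 72.9% ± 4.43, 70.9% ± 1.76 and 60.7% ± 1.44 for longest transcripts and 35.5% ± 5.06, 39.6% ± 2.79 and 24.9% ± 1.19 without division by length, in the same order of stages. Myotubes had an Id share 5.02 percentage points below proliferating cells and 9.30 points below freshly isolated cells, with no overlap between libraries (p = 0.1 each, two-sided exact permutation test, the smallest possible). The difference of myotubes from proliferating cells was -10.3 points with longest transcripts and -14.7 points without division by length, and that from freshly isolated cells -12.2 and -10.5 points, again with no overlap (exact p = 0.1 each). Proliferating against freshly isolated cells differed by -4.28 points with overlap (exact p = 0.2), and without division by length the sign of that difference turned (4.17 points, exact p = 0.3). These shares are of RNA, and no protein was measured.

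Their partners, the myogenic bHLH factors, were read beside them. Myod1 had 5532, 6876 and 4938 normalized read counts in freshly isolated, 20690, 21446 and 21302 in proliferating and 6955, 7315 and 6858 in myotube libraries. Its log2 change was 1.88 ± 0.12 in proliferating against freshly isolated cells (adjusted p = 2.16e-07) and -1.59 ± 0.12 in myotubes against proliferating cells (adjusted p = 3.17e-06), next to 1.67 and -1.55 for Tcf3. Per kilobase, Myod1 averaged 3107 ± 534, 11363 ± 216 and 3784 ± 129, so it was above the summed Id level in proliferating cells and myotubes and below it in freshly isolated cells. Between myotubes and freshly isolated cells Myod1 differed by 0.30 (adjusted p = 0.0357) with overlapping libraries. That call was lost on leaving out any 1 of 5 of the 6 libraries, freshly isolated replicate 1 (adjusted p = 0.0573) or 3 (0.147) and myotube replicate 1 (0.0731), 2 (0.0963) or 3 (0.0628), and when only these 2 stages were fitted (0.067).

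Myf5 fell by 0.83 ± 0.13 on the log2 scale in proliferating against freshly isolated cells (adjusted p = 0.000201). Its change of -0.42 in myotubes against proliferating cells (adjusted p = 0.0183) was not called on leaving out proliferating replicate 1 (adjusted p = 0.073) or 2 (0.0578) or myotube replicate 1 (0.0605) or 3 (0.0642). Myogenin, the factor of early differentiation, had 1257, 62 and 218 in freshly isolated, 2179, 9530 and 8749 in proliferating and 37811, 33789 and 39734 in myotube libraries. Its values spread widely in the first 2 stages, and each myotube library was above all others. Its log2 change in myotubes against proliferating cells was 2.71 ± 0.91 (adjusted p = 0.0285), but 2.02 without proliferating replicate 1 (adjusted p = 0.113). That call was also lost without myotube replicate 1 (0.0688), 2 (0.0639) or 3 (0.0743) and with quantile normalization (0.0546). With freshly isolated replicate 1 and proliferating replicate 1 both left out, the change of 2.02 was called (adjusted p = 0.000907). That alternative was chosen after seeing the data. Myf6 reached 1204, 1095 and 1422 in myotubes, against 25, 36 and 34 in proliferating cells (log2 change 5.26 ± 0.84, adjusted p = 0.000436).

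The BMP pathway, whose Smads are known to drive Id transcription, had 26 of its 30 listed genes tested. In proliferating against freshly isolated cells 6 rose and 15 fell, where 37.6% of all genes rose and 35.7% fell, with a list median of -0.53 on the log2 scale against 0.07 for all genes. The ligands fell most. Bmp6 averaged 13.0 ± 2.65 in proliferating cells and 3928 ± 399 in freshly isolated cells (log2 change -8.15, adjusted p = 5.99e-09). Bmp2 averaged 4.0 ± 1.0 and 992 ± 187 (-7.63, adjusted p = 1.93e-07), and Bmp4 20.0 ± 12.2 and 1961 ± 134 (-6.69, adjusted p = 4.96e-08), in the same order of stages. In proliferating cells, which had lower RNA of these 3 ligands, Id1 and Id2 were higher, Id4 was lower and Id3 was not called. A link between the ligands and the Id genes was not tested.

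In myotubes against proliferating cells 8 BMP pathway genes rose and 12 fell, where 28.6% of all genes rose and 25.5% fell, with a list median of -0.19 against 0.04 for all genes. Smad9, a receptor-regulated Smad of this pathway, averaged 56.3 ± 11.5 in myotubes and 532 ± 21.4 in proliferating cells (log2 change -3.24, adjusted p = 0.000155). The inhibitory Smad7 averaged 265 ± 32.5 in myotubes and 2121 ± 528 in proliferating cells (-2.97, adjusted p = 1.17e-06). Chrd, which encodes the secreted BMP antagonist chordin, averaged 220 ± 36.4 in myotubes and 33.0 ± 20.8 in proliferating cells (2.99, or 2.25 without proliferating replicate 1). In myotubes against freshly isolated cells 6 of the 26 rose and 17 fell (median -1.04 against 0.10 for all genes), where 40.2% of all genes rose and 37.3% fell. The antagonist Nog rose, with 387 ± 32.7 in myotubes and 10.3 ± 11.9 in freshly isolated cells. Its log2 change was 5.66 (adjusted p = 1.08e-05), and 6.51 or 4.98 without freshly isolated replicate 1 or 2.

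Other repressors that act on bHLH factors or E-boxes changed in both directions. Of the 7 tested Hes, Hey and Bhlhe genes, 3 rose and 4 fell in proliferating against freshly isolated cells (median -1.22), 2 rose and 3 fell in myotubes against proliferating cells (median 0.29), and 2 rose and 4 fell in myotubes against freshly isolated cells (median -2.0). The all-gene medians were 0.07, 0.04 and 0.10, and 73.3%, 54.1% and 77.6% of all genes were called in the 3 comparisons. Hes6, which is known to promote myogenesis by opposing Hes1, averaged 9151 ± 1425 in proliferating cells and 104 ± 32.9 in freshly isolated cells (log2 change 6.47, adjusted p = 1.89e-09). Bhlhe40 averaged 131 ± 4.73 in proliferating cells and 7084 ± 561 in freshly isolated cells (-5.75, adjusted p = 6.37e-10). Heyl, a Notch target, averaged 252 ± 203 and 6071 ± 396 in the same order (-4.99, or -4.22 and -5.64 without proliferating replicate 1 or 2). Hes1 averaged 250 ± 34.4 in myotubes and 656 ± 21.7 in proliferating cells (-1.39, adjusted p = 0.000275).

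The E-box zinc finger repressors had 2 of 5 genes higher and 3 lower in proliferating against freshly isolated cells (median -1.04), 1 higher and 2 lower in myotubes against proliferating cells (median 0.09), and 2 higher and 1 lower in myotubes against freshly isolated cells (median -0.02). The 5, 3 and 3 of 5 called stand beside 73.3%, 54.1% and 77.6% of all genes, whose medians were 0.07, 0.04 and 0.10. Zeb1 averaged 1389 ± 184 in proliferating cells and 6030 ± 163 in freshly isolated cells (log2 change -2.13, adjusted p = 3.33e-08). In myotubes it averaged 7769 ± 234, above proliferating cells (2.49, adjusted p = 2.12e-07). Snai1, which is known to keep MyoD from E-boxes of differentiation genes in myoblasts, averaged 377 ± 8.72 in proliferating cells and 63.3 ± 26.4 in freshly isolated cells (2.66, adjusted p = 2.02e-05). In myotubes it averaged 124 ± 9.54, below proliferating cells (-1.60, adjusted p = 0.00128).

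Of 18 other bHLH genes whose products pair with E proteins, 6 passed the filter. In proliferating against freshly isolated cells 2 rose and 2 fell (median 0.67), in myotubes against proliferating cells 2 rose and 2 fell (median -0.65), and in myotubes against freshly isolated cells 2 rose and 3 fell (median -0.72). The 4, 4 and 5 of 6 called are near the 73.3%, 54.1% and 77.6% of all genes called, whose medians were 0.07, 0.04 and 0.10. Scx, known for its role in tendon, averaged 1648 ± 135 in proliferating cells and 106 ± 13.1 in freshly isolated cells (log2 change 3.95, adjusted p = 5.91e-09), and 3745 ± 555 in myotubes (1.18 against proliferating cells, adjusted p = 5.58e-05). Atoh8 averaged 2150 ± 94.2 in proliferating cells and 506 ± 110 in freshly isolated cells (2.11, adjusted p = 8.27e-07), and 545 ± 58.5 in myotubes (-1.98 against proliferating cells, adjusted p = 4.61e-06). Tal2 averaged 140 ± 12.5 in myotubes and 18.7 ± 5.69 in proliferating cells (2.88, adjusted p = 9.14e-05).

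Of 15 genes for cofactors of MyoD and E proteins, 3 rose and 11 fell in proliferating against freshly isolated cells (median -1.20), 6 rose and 6 fell in myotubes against proliferating cells (median -0.04), and 3 rose and 9 fell in myotubes against freshly isolated cells (median -1.19). Among all genes 35.7%, 25.5% and 37.3% fell, with medians of 0.07, 0.04 and 0.10. Lmo2, a LIM-only adaptor of bHLH complexes, averaged 121 ± 19.6 in proliferating cells and 1331 ± 126 in freshly isolated cells (log2 change -3.45, adjusted p = 1.66e-07). The acetyltransferase Kat2b (PCAF), which acetylates MyoD, averaged 214 ± 59.0 in proliferating cells and 1428 ± 63.9 in freshly isolated cells (-2.77, adjusted p = 4.90e-07). In myotubes it averaged 629 ± 83.0, above proliferating cells (1.58, adjusted p = 6.18e-05). Mdfi (I-mfa), which binds myogenic bHLH factors and inhibits them, averaged 70.0 ± 15.5 in myotubes and 17.3 ± 2.52 in proliferating cells (1.94, adjusted p = 0.000349). Mef2c, a partner of myogenic bHLH factors, averaged 29686 ± 3248 in myotubes and 175 ± 133 in proliferating cells (7.88, or 6.93 and 8.50 without proliferating replicate 1 or 2).

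**Figure D4:**
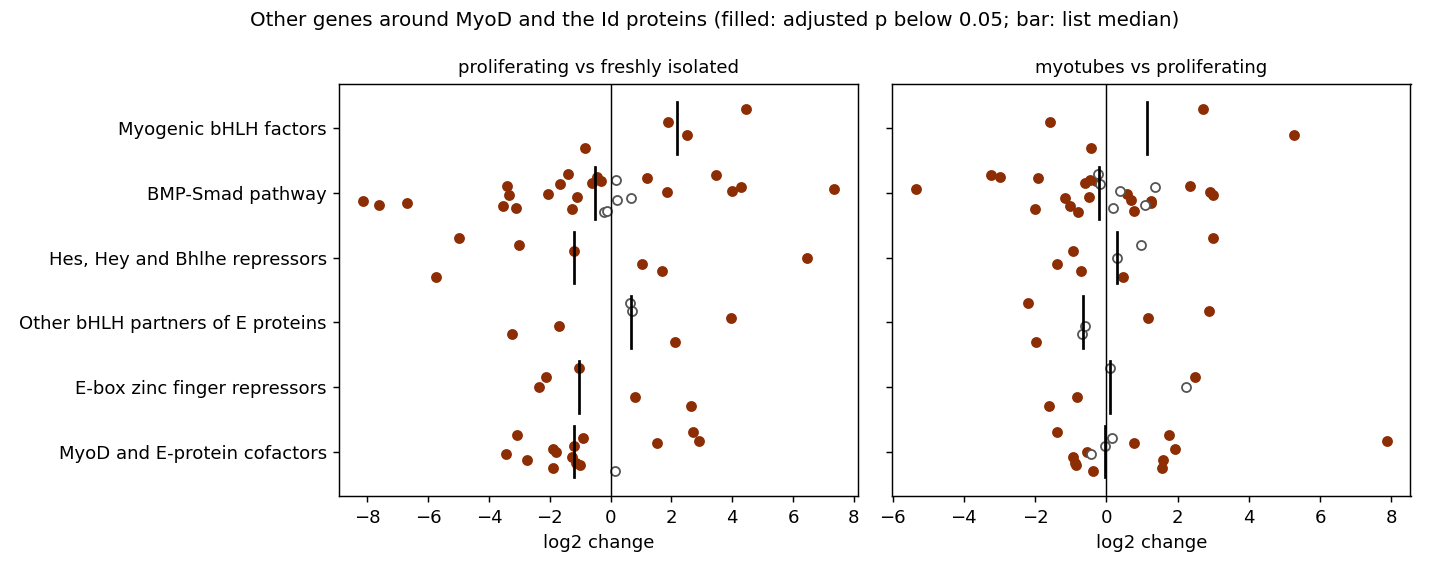
Log2 changes (horizontal axes) of the tested genes of 6 lists around MyoD and the Id proteins in proliferating against freshly isolated cells and in myotubes against proliferating cells. Filled points had an adjusted p below 0.05 in the limma model and black bars are list medians; the BMP-Smad median is -0.53 in the first comparison, where 15 of 26 genes fell.

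The genes whose pattern was most like each of the 8 were looked for among 9936 protein-coding genes with a mean of at least 100, by Pearson correlation of log2 values over the 9 libraries. The 9 points form 3 stages, so such values mainly rank genes by their stage means, and 283 to 1014 genes had r above 0.9 with each member. Id1 was most like Dtl, a gene of the replication-coupled ubiquitin ligase CRL4 (r = 0.991), with Utp15 and Ppp4r1 next. Dtl averaged 387 ± 37.7 in freshly isolated cells, 1176 ± 96.7 in proliferating cells and 357 ± 74.9 in myotubes. Id2 was most like Chml (r = 0.995), then Proser1 and Urb2, and Tcf3 was most like Scaf11 (r = 0.996), then Mthfd1 and Utp20.

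Id3 was most like Mta2, a subunit of the NuRD complex (r = 0.997), which averaged 3465 ± 615, 3088 ± 94.0 and 1351 ± 79.4 over the stages in culture order. Vav2 and Nle1 came next. Id4 was most like Pcdhga8 (r = 0.986), whose exons are partly shared with other genes of the protocadherin cluster so that its reads are uncertain, then Zcchc14 and Cep128. Tcf4 was most like Mettl21c (r = 0.994), then Olfml3 and Eef1a1, and Tcf12 was most like Nckap1 (r = 0.990), then Ctnnb1 and Rragc. Msc was most like Bcl2l11, which encodes the pro-apoptotic protein Bim (r = 0.993), then Satb1 and Ccdc82, but Bcl2l11 spanned a smaller range, at means of 840, 174 and 236 in the 3 stages.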

How the data were processed

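Total RNA (100 ng per sample) was depleted of ribosomal RNA and made into libraries with a stranded total RNA kit, per the labels' protocols. The submitters' processing notes name STAR 2.4.0a for alignment, featureCounts 1.4.5-p1 for counting and the build mm10 (GRCm38). The deposited values have the unit score: they are gene counts after scaling by the authors and rounding to whole numbers, by a method not given in the sources used here. Columns were matched to stages by their prefixes, the freshly isolated ones by elimination. Reads per library, estimated from the spacing of low values, were 12.0 to 19.3 M (freshly isolated), 20.4 to 24.3 M (proliferating) and 22.0 to 22.8 M (myotubes). Depth and the 3 libraries per stage limit precision for low genes such as Msc in culture.

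Values were used as log2(value + 1), and fold changes on that scale understate those of low genes. The 3 stages were compared in 1 limma 3.58.1 model (R 4.3.3) with a mean-variance trend, adjusted by the Benjamini-Hochberg method over 17291 genes, with a threshold of 0.05. The fit was also run on simulated data in which few genes changed. Most genes were called here, so that run does not check the scaling or the error rate in these data. A test on counts was not used, because the scaled and rounded values did not give back whole reads. Shares per library were compared by two-sided exact permutation tests (scipy 1.17.1), and merged exonic lengths came from GENCODE vM21. Alternatives were pseudocounts of 0.5 and 5, no filter, median-of-ratios, TMM and quantile scaling, fitting only the stages compared, a replicate block, another length, and leaving out each library.

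The 8 genes, the gene lists and the tests were chosen with earlier results of these data known. Text names the 8 genes, the 4 myogenic bHLH genes, up to 4 called genes per list and comparison with the largest change, and the 3 genes most like each of the 8; markers and the antisense overlaps were added. A gene that meets this rule is not reported here.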

Additional observations from a re-analysis of the deposited data

How the results depend on the processing

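Over all alternatives, 345 of 360 values of the 8 genes kept their direction and their side of the threshold, 5 lost a call, 5 gained one and 5 changed sign, all 5 of these without a call. The count of called genes was 7 in every alternative for proliferating against freshly isolated cells, 6 to 8 for myotubes against proliferating cells and 5 or 6 for myotubes against freshly isolated cells. The 5 lost calls are those of Tcf12 given above. The gains were Tcf4 in myotubes against proliferating cells (2 alternatives) and Id2 in myotubes against freshly isolated cells (3 alternatives, with quantile normalization at -0.76, adjusted p = 0.00538). The sign changes were Id3 in proliferating against freshly isolated cells with quantile normalization (0.040), Tcf3 in myotubes against freshly isolated cells with quantile normalization (-0.058), and Id1 in that comparison with TMM scaling (0.0074) and on leaving out a library (range -0.18 to 0.020, above 0 without freshly isolated replicate 2 or, at 0.00034, myotube replicate 3). The Id share in proliferating against freshly isolated cells turned to 4.17 percentage points without division by length. Leaving out each library moved the 3 differences in Id share over -5.97 to -2.94, -5.66 to -4.51 and -11.0 to -7.96 points. The cause of these shifts was not tested, except that fewer libraries were fitted where a library was left out.

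The replicate numbers were not taken to pair the samples in the main model. Deviations of same-numbered libraries from their stage means correlated at -0.034 to 0.027, and those of different-numbered libraries at -0.058 to 0.059. With 3 libraries per stage, such values cannot exclude a shared batch. With the replicate number as a block, Tcf4 in myotubes against proliferating cells was called (adjusted p = 0.0346), the members called were 7, 8 and 5, and no other call of the 8 genes changed. TMM scaling moved the median of all genes by 0.13 in proliferating against freshly isolated cells and quantile normalization by -0.14 in myotubes against proliferating cells. Leaving out freshly isolated replicate 1 and proliferating replicate 1 together, and the longest transcript as length, were chosen after seeing the data.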
